A study of Rattus norvegicus with 6 samples.

Results

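Prostanoids are lipid mediators made from arachidonic acid, and they are among the best known local regulators of vascular tone. Phospholipases release arachidonic acid from membranes, the cyclooxygenases turn it into prostaglandin H2, and terminal synthases turn that into prostacyclin, thromboxane or one of the prostaglandins, each of which acts on its own G protein-coupled receptors. In blood vessels, receptors coupled to Gs raise cAMP and relax smooth muscle, whereas receptors coupled to Gq raise calcium and contract it.

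Expression of 10 genes of this system was examined in mural cells of the rat brain, 6 receptor genes (Ptgir, Ptger4, Tbxa2r, Ptgfr, Ptger1 and Ptgdr2) and 4 enzyme genes (Ptgs1, Ptgs2, Ptgis and Ptgds). They were selected by gene symbol in the table of listed genes, and all 10 had a row among 14607 listed genes. RNA-Seq had been carried out on cortical cells of male Sprague-Dawley rats aged 4 to 5 weeks, with 3 samples of vascular smooth muscle cells (VSMCs) and 3 samples of mid-capillary pericytes (mcPCs). VSMCs came from arterioles retained on a mesh filter and were sorted positively with the lectin GSA-FITC once CD31+ and CD11b+ cells had been removed. mcPCs came from the filtrate and were sorted negatively, as the cells left after removal of CD31+ (endothelial), CD11b+ (microglia and perivascular macrophages), GLAST+ (astrocytes) and O4+ (oligodendrocytes) cells, so any cell lacking these labels could remain. Each isolation pooled several rats, no treatment was given, and the arterioles underwent an additional and harsher digestion that the filtrate did not.

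All levels are the authors' means over the samples of a cell type and no value of single samples was used here, so levels carry no SD and no difference between cell types was tested against the spread between samples. The intervals printed beside ratios are exact 95% intervals for the counting of reads. They cover counting error only, and reads without molecular identifiers are not independent molecules. Depth was 62.0 M reads per sample in VSMCs and 48.0 M in mcPCs. Levels are given in TPM (transcript counts divided by length and scaled to a fixed total), a scale that allows genes to be compared within a cell type. Ratios between cell types are ratios of the authors' mean normalized counts, mcPCs over VSMCs, and a gene is called different when they are at least 2-fold apart.

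Marker genes were first set against the labels. All 9 smooth muscle markers were at least 2-fold lower in mcPCs, summing to 45517 TPM in VSMCs against 82.8 in mcPCs (46006 and 247 TPM without erythrocyte genes, which are treated next), with Tagln, which encodes the actin-binding protein transgelin, the most abundant in both. All 8 pericyte markers were at least 2-fold higher in mcPCs, with a summed level of 1031 and 3222 TPM (1042 and 9605 TPM without erythrocyte genes). Vtn, the gene of vitronectin, led that list in both cell types with 484 and 1531 TPM. The 5 markers common to mural cells went different ways, with 2 (Notch3 and Mcam) at least 2-fold lower in mcPCs, 1 (Pdgfrb) higher and 2 within 2-fold. Their sum was 10733 and 7746 TPM without erythrocyte genes, and 10619 and 2598 TPM with them. Rgs5, a regulator of G protein signalling, was the most abundant of them, with a log2 ratio of -0.06.

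Other cells were represented too, unequally. Erythrocyte genes, 19 of 30 listed, made up 0.874% of TPM in VSMCs and 66.4% in mcPCs, with the globin gene Hba-a1 the most abundant in both. Because TPM is a share of a fixed total, that portion lowers the TPM of every other gene in mcPCs. The median listed gene had 12.7 TPM in VSMCs but 3.59 in mcPCs. TPM with the erythrocyte genes left out of the total is therefore also given for the 10 genes and for the sums of the marker lists, and TPM of other genes should be compared within a cell type only. In bulk samples, fewer cells of a type and less RNA per cell cannot be told apart.

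Within 2-fold of each other in VSMCs and mcPCs was 1 of the 10 genes, Ptger1. Ptgir, Ptgfr and Ptgis, 3 of 10, were at least 2-fold lower in mcPCs, against 13.9% of all listed genes. Ptger4, Tbxa2r, Ptgdr2, Ptgs1, Ptgs2 and Ptgds, 6 of 10, were at least 2-fold higher in mcPCs, against 22.0% of all listed genes. The median log2 ratio was 1.65 over the 10 genes and 0.01 over all listed genes.

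**Figure D1:**
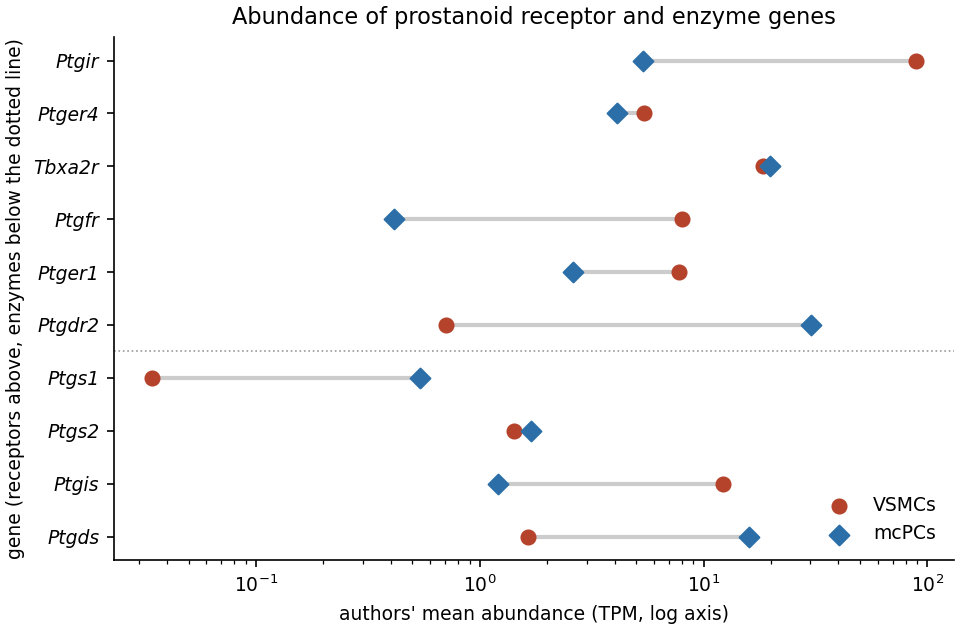
Authors' mean abundance of the 10 genes in TPM (horizontal log axis) in VSMCs (circles) and mcPCs (diamonds), each point the mean of a cell type with erythrocyte genes left in the total. Ptgir was the most abundant in VSMCs at 88.6 TPM and Ptgdr2 in mcPCs at 30.2 TPM.

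Ptgir, which encodes the prostacyclin receptor IP, a receptor coupled to Gs, was the leading prostanoid receptor transcript of VSMCs. Ptgir (ENSRNOG00000016756) stood at 88.6 TPM in VSMCs, above 88.2% of listed genes, and at 5.36 TPM in mcPCs, above 60.6% of them. Without erythrocyte genes in the total it stood at 89.6 and 16.0 TPM. The mean normalized count was 8297 in VSMCs and 1788 in mcPCs, from 11608 and 1309 reads per sample, so that Ptgir was 4.64-fold lower in mcPCs (counting interval 4.49 to 4.80). Smooth muscle markers differed far more between the same samples, since Myh11, the smooth muscle myosin heavy chain, was 327-fold lower in mcPCs, although Smtn, the gene of smoothelin, was only 5.58-fold lower.

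Ptger4, the gene of the prostaglandin E2 receptor EP4, also coupled to Gs, went the other way. Ptger4 (ENSRNOG00000013240) stood at 5.42 TPM in VSMCs and 4.09 TPM in mcPCs, or 5.48 and 12.2 TPM without erythrocyte genes in the total. Its mean normalized count was 198 in VSMCs and 505 in mcPCs, which made it 2.55-fold higher in mcPCs (counting interval 2.33 to 2.79). The direction depended on the scale, because the plain ratio of mean TPM put Ptger4 lower in mcPCs, with a log2 ratio of -0.41.

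Tbxa2r encodes the thromboxane receptor TP, a contractile receptor of vascular smooth muscle that is also carried by platelets. Tbxa2r (ENSRNOG00000020585) had 18.4 TPM in VSMCs against 19.9 in mcPCs, which placed it above 58.5% of listed genes in VSMCs and 87.4% in mcPCs. Without erythrocyte genes in the total the levels were 18.6 and 59.4 TPM. From 1259 and 2510 reads per sample, its mean normalized count was 899 in VSMCs and 3460.3 in mcPCs, a 3.85-fold higher value in mcPCs (counting interval 3.70 to 4.00). Of 11 platelet markers 3 had a row, of which 2 were at least 2-fold higher in mcPCs, with a median log2 ratio of 1.18. Their sum was 6.56 TPM in VSMCs against 12.9 in mcPCs without erythrocyte genes, and 6.49 and 4.32 TPM with them, most of it from the integrin gene Itgb3. Pf4, Ppbp, Gp9, Gp6, Gp1bb, Selp, Treml1 and Clec1b had no row. A gene without a read in any 1 of the 6 samples, VSMCs included, has no row, so a missing row gives no level in mcPCs. Itga2b, the platelet integrin alpha chain, was at 0.234 TPM in VSMCs and 0.258 in mcPCs, a 2.93-fold higher normalized count in mcPCs, and Gp1ba, a platelet glycoprotein gene, was at 0.478 and 0.0879 TPM, with a log2 ratio of -0.76 (counting interval -1.25 to -0.28). The part of platelets in the Tbxa2r level was not tested.

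The remaining Gq-coupled receptor genes took different courses. Ptgfr (ENSRNOG00000046468), the gene of the prostaglandin F receptor FP, stood at 8.02 TPM in VSMCs but 0.412 in mcPCs (8.11 and 1.23 TPM without erythrocyte genes in the total), with normalized counts of 649 and 122. It was 5.31-fold lower in mcPCs (counting interval 4.68 to 6.05) and ranked last of the 10 genes there, above 14.4% of listed genes. Ptger1 (ENSRNOG00000004094), which encodes the prostaglandin E2 receptor EP1, stood at 7.80 and 2.60 TPM. Its normalized counts of 387 in VSMCs and 434 in mcPCs were close, at a ratio of 1.12 (counting interval 1.04 to 1.22). Without erythrocyte genes in the total, Ptger1 was at 7.89 TPM in VSMCs against 7.74 in mcPCs.

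Ptgdr2 was the widest apart of the 10 genes. It encodes DP2, also called CRTH2, a receptor for prostaglandin D2 that is coupled to Gi and is best known from eosinophils, basophils and type 2 helper T cells. Ptgdr2 (ENSRNOG00000036631) stood at 0.704 TPM in VSMCs, above 15.4% of listed genes, and at 30.2 TPM in mcPCs, above 91.8% of them. Without erythrocyte genes in the total its level in mcPCs was 90.0 TPM, close to the 89.6 TPM of Ptgir in VSMCs on that scale. From 40.0 and 3117 reads per sample, the mean normalized count was 28.3 in VSMCs and 4355.5 in mcPCs, a 154-fold higher value in mcPCs (counting interval 129 to 186).

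Leukocyte markers with a row lay in the same direction as Ptgdr2. Of 12 leukocyte markers 5 had a row and all 5 were higher in mcPCs, summing to 2.10 TPM in VSMCs against 167 in mcPCs (2.13 and 498 TPM without erythrocyte genes). The lysozyme gene Lyz2 was the most abundant of them at 131 TPM in mcPCs, and Ptprc, the pan-leukocyte gene of CD45, was at 15.1 TPM, below Ptgdr2 on this scale. The T and B cell genes Cd3e, Cd3g, Cd79a, Cd79b and Ms4a1 had no row, nor had Nkg7 or S100a8. As for the platelet genes, a missing row gives no level in mcPCs and does not show that such cells were absent. In normalized counts the 5 leukocyte markers lay between 39.7-fold higher in mcPCs for S100a9 and 811-fold higher for Ptprc. Pericyte markers lay in the same direction, between 2.40-fold higher for Ndufa4l2 and 215-fold higher for Ggt1. The level of Ptgdr2 in VSMCs, like that of Ptgs1, is below the minimum that the study set in VSMCs for its final dataset because of contaminating cells in mcPCs. Perfusion of the rats was meant to clear blood from the brain vessels, and CD11b+ cells had been sorted out of both preparations. The part of any remaining leukocytes in the Ptgdr2 level was not tested.

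The upstream sequences of the receptor gene with the highest TPM in each preparation, Ptgir in VSMCs and Ptgdr2 in mcPCs, are shown here. They are the 250 bases before the annotated start in RefSeq (GRCr8), read 5′ to 3′ on the strand of the gene, which is the plus strand for both, with GGGCGG or CANNTG matches on either strand in capitals.
Ptgir: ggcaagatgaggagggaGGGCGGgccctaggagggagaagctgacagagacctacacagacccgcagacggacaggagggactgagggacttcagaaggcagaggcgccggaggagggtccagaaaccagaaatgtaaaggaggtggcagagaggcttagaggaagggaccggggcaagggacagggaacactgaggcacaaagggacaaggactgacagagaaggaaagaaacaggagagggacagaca
Ptgdr2: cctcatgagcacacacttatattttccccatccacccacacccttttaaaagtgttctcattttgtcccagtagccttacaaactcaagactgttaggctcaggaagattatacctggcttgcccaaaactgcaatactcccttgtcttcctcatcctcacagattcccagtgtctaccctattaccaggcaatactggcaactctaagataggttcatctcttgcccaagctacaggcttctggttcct
Windows of 300 bases, from 250 before to 50 after the start, were available for 9 of the 10 genes, Ptgis not being among them. GGGCGG, the core of a GC box, was matched in 4 of the 9 windows (Ptgir, Ptger1, Ptgs2 and Ptgds) and in 33.1% of 33469 windows of that length in the table. The E-box letters CANNTG were matched in 5 of 9 (Ptger1, Ptgdr2, Ptgs1, Ptgs2 and Ptgds), with the match of Ptgdr2 lying after the start and outside the stretch shown, and in 72.1% of all windows. TATAAA, the cAMP response element TGACGTCA and the CArG box of serum response factor were each matched in 0 of 9 windows, against 14.2%, 1.83% and 1.64% of all windows. These motifs were searched on both strands, and a match describes letters and not a bound site.

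The make-up of receptor transcripts differed between the cell types without any scaling between them. In VSMCs the 6 receptor genes summed to 129 TPM, and Ptgir held 68.7% of it (counting interval 68.2 to 69.2), followed by Tbxa2r with 14.3%. In mcPCs they summed to 62.6 TPM, of which Ptgdr2 held 48.2%, Tbxa2r 31.8% and Ptgir 8.57% (counting interval 8.31 to 8.85). Ptgdr2 lay under the study's minimum of 0.8 TPM in VSMCs, and the part of other cells in the mcPC shares was not tested. Grouped by the G protein each receptor is best known to use, Gs-coupled genes held 72.9% of receptor TPM in VSMCs and 15.1% in mcPCs. The Gq-coupled genes held 26.6% and 36.6%, and the Gi-coupled gene Ptgdr2 held 0.546% and 48.2%. The ratio of Ptgir to Tbxa2r, prostacyclin receptor to thromboxane receptor, was 4.81 in VSMCs (counting interval 4.65 to 4.97) and 0.269 in mcPCs (0.259 to 0.280).

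**Figure D2:**
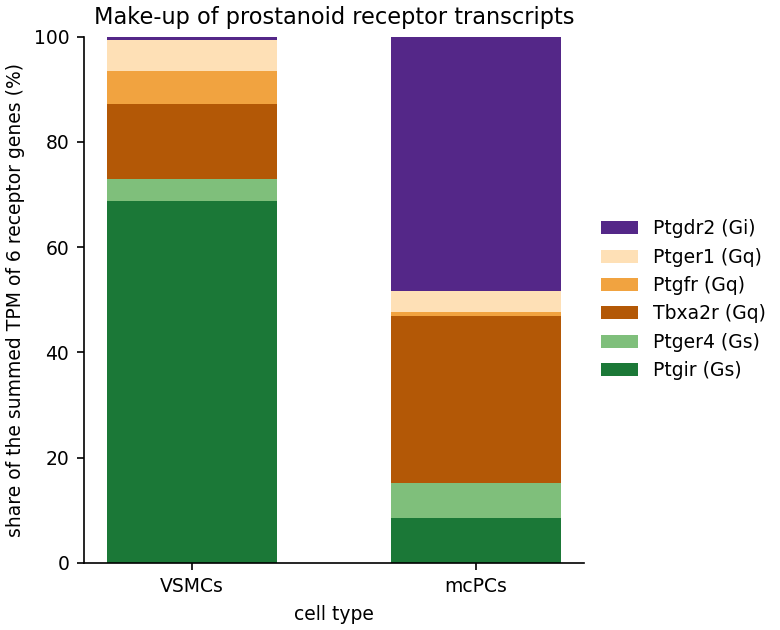
Share of the summed TPM of the 6 receptor genes held by each gene (vertical axis, percent, from 0) in VSMCs and mcPCs, with the G protein each receptor is best known to use in parentheses. Ptgir filled 68.7% of the bar of VSMCs and Ptgdr2 48.2% of that of mcPCs.

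Ordered by TPM, the receptor genes of VSMCs ran Ptgir, Tbxa2r, Ptgfr, Ptger1, Ptger4 and Ptgdr2. Ptgfr and Ptger1 could not be ordered beyond counting error there, with a ratio of 1.03 (counting interval 0.967 to 1.09). In mcPCs the order was Ptgdr2, Tbxa2r, Ptgir, Ptger4, Ptger1 and Ptgfr, and each neighbour was apart by more than counting error, the closest being Ptgir over Ptger4 at 1.31 (counting interval 1.23 to 1.40). Whether neighbours differed beyond the spread between samples was not tested. The receptor genes Ptgdr (DP1), Ptger2 (EP2) and Ptger3 (EP3) had no row. Genes lack a row where any of the 6 samples held no read of them, or where the authors' transcript set did not include them.

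Cyclooxygenase transcripts were scarce in both cell types and were higher in mcPCs. Ptgs2 (ENSRNOG00000002525), the inducible cyclooxygenase COX-2, had 1.42 TPM in VSMCs against 1.69 in mcPCs, which exceeded 20.9% and 33.4% of listed genes. Without erythrocyte genes in the total its levels were 1.44 and 5.04 TPM. Its mean normalized count was 171 in VSMCs and 671 in mcPCs, a 3.92-fold higher value in mcPCs (counting interval 3.58 to 4.29). Ptgs2 is itself an immediate early gene. Of 21 other immediate early and dissociation response genes with a row, 18 were at least 2-fold lower in mcPCs, against 13.9% of listed genes. The phosphatase gene Dusp2 was the 1 gene at least 2-fold higher, against 22.0% of listed genes. The 21 genes summed to 473 TPM in mcPCs against 21642 TPM in VSMCs (1409 and 21875 TPM without erythrocyte genes). Fos led them in VSMCs and Zfp36 in mcPCs.

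Ptgs1 (ENSRNOG00000007415), the constitutive cyclooxygenase COX-1, was nearly absent from VSMCs, at 0.0342 TPM from 11 reads over all 3 samples. In mcPCs it stood at 0.543 TPM, from 103 reads per sample. Without erythrocyte genes in the total the levels were 0.0346 and 1.62 TPM. Normalized counts were 2.57 and 139, a 54.2-fold higher value in mcPCs whose counting interval was wide (29.9 to 110). COX-2 transcripts outnumbered COX-1 transcripts per length 41.5-fold in VSMCs (counting interval 23.1 to 83.5) and 3.11-fold in mcPCs (2.75 to 3.53). Ptgs1 is known in the brain from microglia, and 6 of 13 microglia and macrophage markers had a row, all higher in mcPCs, with sums of 1.77 and 41.0 TPM (1.79 and 122 TPM without erythrocyte genes). Fcer1g was the most abundant of them and Csf1r, the receptor that microglia depend on, was at 3.94 TPM in mcPCs, whereas Aif1, C1qc, Cd163, Itgam, Mrc1, P2ry12 and Tyrobp had no row. These missing rows likewise give no level in mcPCs. The CD11b sort was meant to remove microglia and macrophages from both preparations, and the part of any that remained in the Ptgs1 level was not tested.

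Of the terminal synthases, the prostacyclin and prostaglandin D synthase genes lay in opposite directions. Ptgis (ENSRNOG00000008245), the prostacyclin synthase, stood at 12.2 TPM in VSMCs and 1.21 TPM in mcPCs, or 12.3 and 3.59 TPM without erythrocyte genes in the total. Its normalized counts were 494 and 168, so that it was 2.94-fold lower in mcPCs (counting interval 2.63 to 3.29). Both Ptgis and Ptgir, the enzyme that makes prostacyclin and the receptor that binds it, were therefore among the 3 genes lower in mcPCs.

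Ptgds (ENSRNOG00000015550), the lipocalin-type prostaglandin D synthase, stood at 1.65 TPM in VSMCs and 16.0 TPM in mcPCs, or 1.66 and 47.6 TPM without erythrocyte genes in the total. From 37.0 and 667 reads per sample, its normalized counts were 27.4 and 900.3, a 32.8-fold higher value in mcPCs (counting interval 27.1 to 40.1). The ratio of Ptgds to Ptgis was 0.135 in VSMCs and 13.3 in mcPCs. Ptgds and Ptgdr2, an enzyme that makes prostaglandin D2 and a receptor that binds it, were both higher in mcPCs. Ptgds is known in the brain as a gene of leptomeningeal cells and oligodendrocytes. Of the fibroblast and leptomeninges list 11 of 12 symbols had a row, giving 12 rows, of which 9 were at least 2-fold higher and 1 lower in mcPCs, with a median log2 ratio of 1.93. Their sum was 354 TPM in VSMCs against 862 in mcPCs without erythrocyte genes, and 350 and 289 TPM with them, the most abundant being Foxc1 in VSMCs and Slc6a13, at 132 TPM, in mcPCs. Apod, of the same list, was at 2.13 and 51.7 TPM, and Col1a2 had no row. Of the oligodendrocyte markers 7 of 9 had a row and 6 of these were at least 2-fold higher in mcPCs, with a median log2 ratio of 1.73. They summed to 20.1 and 61.8 TPM without erythrocyte genes, and 19.8 and 20.7 TPM with them, with Cnp the most abundant, and Mag and Olig1 had no row. The cortex had been cleared of meninges and white matter during dissection, and the O4 sort of the filtrate was meant to remove oligodendrocytes. The part of any remaining cells of these kinds in the Ptgds level was not tested.

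**Figure D3:**
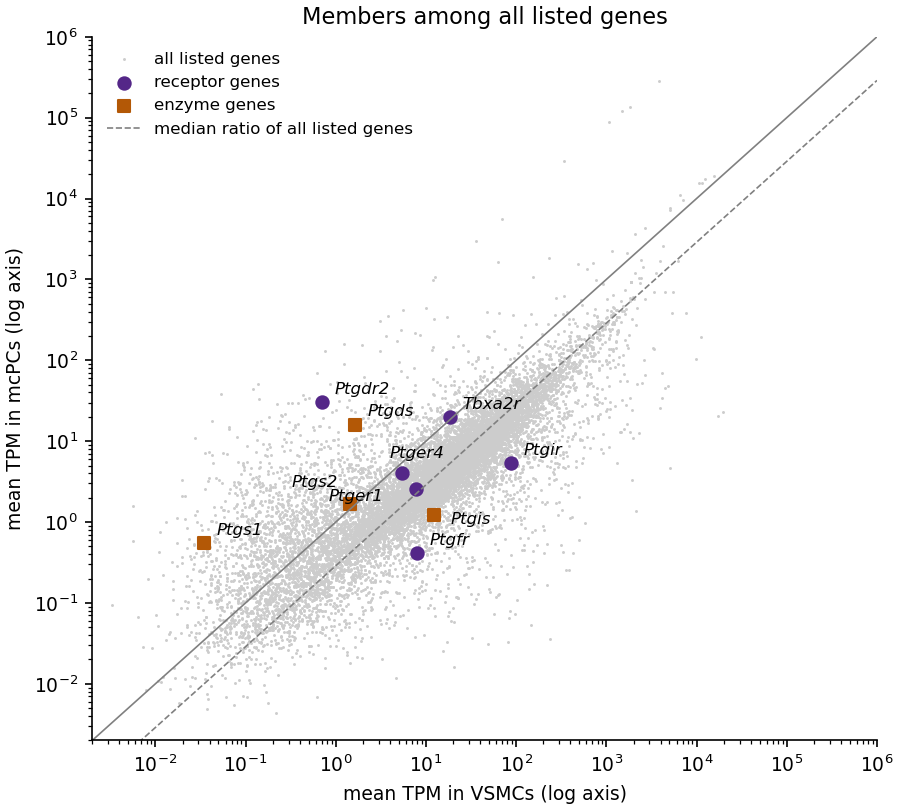
Mean TPM in VSMCs (horizontal log axis) against mean TPM in mcPCs (vertical log axis) for all 14607 listed genes (grey), with receptor genes as circles and enzyme genes as squares. The solid line marks equal TPM and the dashed line the median ratio of all listed genes, a log2 ratio of -1.79. Ptgir, Ptgfr and Ptgis lie below the dashed line, and Ptgdr2, Ptgds and Ptgs1 lie far above it.

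Other genes of prostanoid synthesis and handling were counted from fixed lists of 39 symbols, of which 23 had a row. At least 2-fold lower in mcPCs were 3 of these 23, against 13.9% of all listed genes, and 8 were at least 2-fold higher, against 22.0%, with a median log2 ratio of 0.38. Those lower were the phospholipase genes Pla2g5 and Pla2g4f, with log2 ratios of -1.91 and -1.59, and the monoacylglycerol lipase gene Mgll, at -1.19. Mgll frees arachidonic acid from an endocannabinoid. Pla2g4f had 18 reads over all mcPC samples, and its counting interval of -2.40 to -0.85 crossed 2-fold. With whole counting intervals past 2-fold required, 2 of these 23 genes were lower. Pla2g4a, the cytosolic phospholipase A2 that usually supplies cyclooxygenases, was at 0.604 TPM in VSMCs and 0.666 TPM in mcPCs, a log2 ratio of 1.88. Dagla, the diacylglycerol lipase, had a log2 ratio of 3.14, Faah, a fatty acid amide hydrolase, one of 3.47 and the secreted phospholipase Pla2g2d one of 5.24. Faah and Pla2g2d were at 0.146 and 0.0269 TPM in VSMCs and, like Pla2g4a, lay under the study's minimum of 0.8 TPM there.

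Of the further synthase genes with a row, all but Cbr1 lay within 2-fold in normalized counts. Ptges3, a cytosolic prostaglandin E synthase that is also a chaperone partner of HSP90, had 121 TPM in VSMCs against 27.2 in mcPCs, with a log2 ratio of -0.35 in normalized counts. Akr1b1, an aldose reductase that can form prostaglandin F, stood at 87.3 and 25.3 TPM with a log2 ratio of 0.03, and the E synthase gene Ptges2 had a log2 ratio of -0.24. Cbr1, a carbonyl reductase of prostaglandins, was higher in mcPCs with a log2 ratio of 1.76. Hpgds, Ptges and Tbxas1, the genes of the hematopoietic prostaglandin D synthase, the inducible prostaglandin E synthase and the thromboxane synthase, had no row.

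Of the 5 genes of transport and inactivation with a row, 3 were at least 2-fold higher in mcPCs, against 22.0% of all listed genes. Slco2a1, the prostaglandin transporter that carries prostaglandins into cells, had a log2 ratio of 3.83 and a level of 1.33 TPM in mcPCs. Abcc4, which exports them, had a log2 ratio of 2.95 and Ptgr1, a prostaglandin reductase, one of 2.60. In VSMCs Slco2a1, Abcc4 and Ptgr1 were at 0.335, 0.218 and 0.621 TPM, under the study's minimum of 0.8 TPM. Hpgd, the main enzyme of prostaglandin breakdown, had no row. Slco2a1 is known from brain endothelium, and 8 of 11 endothelial markers with a row were also at least 2-fold higher in mcPCs. Their sum was 620 TPM in VSMCs against 705 in mcPCs without erythrocyte genes, and 613 and 237 TPM with them, most of it from Esam, whereas the tight junction gene Cldn5 was at 0.643 and 15.4 TPM and Pecam1, the gene of CD31, had no row. CD31+ cells had been sorted out of both preparations, and the part of any remaining endothelial cells in the Slco2a1 level was not tested.

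**Figure D4:**
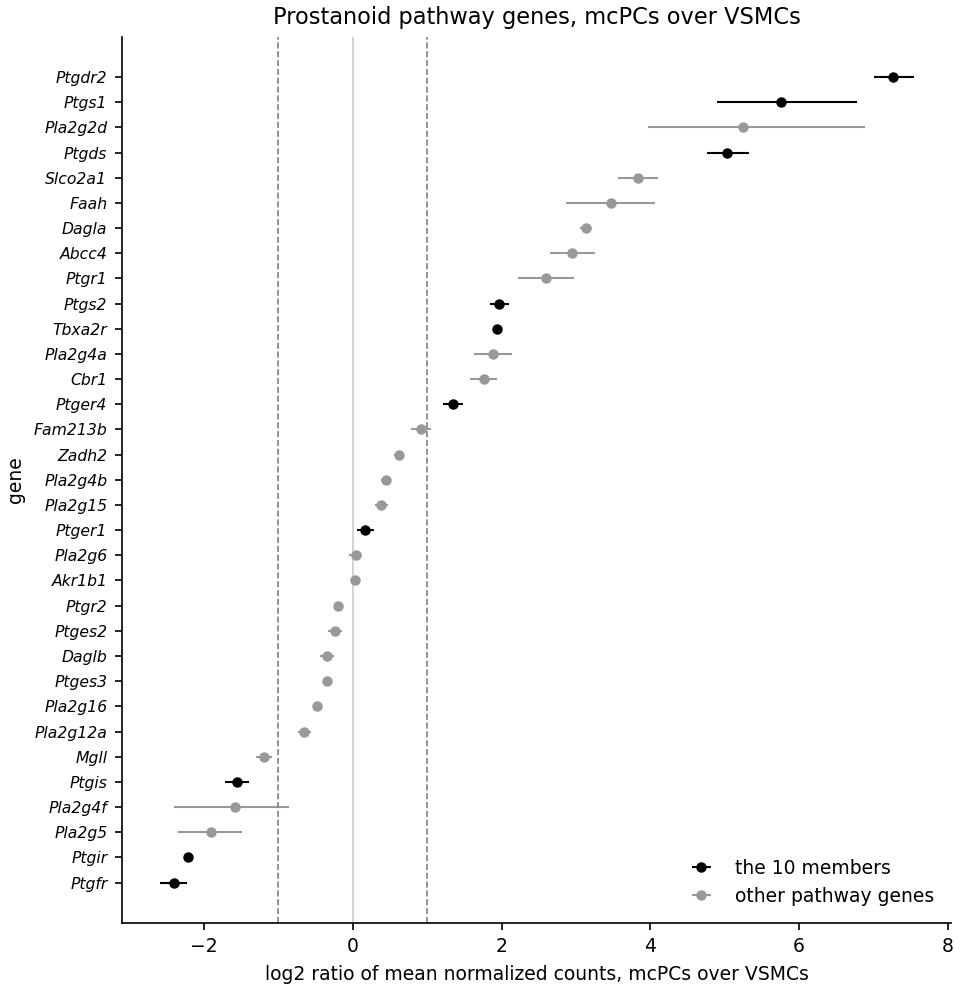
Log2 ratio of mean normalized counts, mcPCs over VSMCs (horizontal axis), for the 10 genes (black) and the 23 other pathway genes with a row (grey), with bars for the 95% counting interval and dashed lines at 2-fold. Ptgfr lies lowest at -2.41 and Ptgdr2 highest at 7.27.

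Downstream of the receptors, 31 of 33 symbols for G protein subunits, adenylyl cyclases, phospholipases C, protein kinase A subunits and other effectors had a row. They gave 32 rows, of which 12 were at least 2-fold lower in mcPCs, against 13.9% of all listed genes, and 4 at least 2-fold higher, against 22.0%, with a median log2 ratio of -0.72. Adcy3 and Adcy5, adenylyl cyclases that act below Gs-coupled receptors such as that of Ptgir, were the furthest down, at 279 and 229 TPM in VSMCs and 1.71 and 2.94 TPM in mcPCs, with log2 ratios of -5.57 and -4.46. Adcy7 went the other way, with 0.150 TPM in VSMCs against 3.08 in mcPCs, and Adcy6 was the most abundant cyclase of mcPCs at 42.2 TPM. Among Gq effectors, Plcb1 and Plcb4 had log2 ratios of -2.66 and -2.11, whereas Plcb3 (-0.81) lay within 2-fold. Of the G protein alpha subunit genes, Gnai1 was at least 2-fold lower with a log2 ratio of -1.69, whereas Gna11 (-0.96), Gna12 (-0.76), Gnaq (-0.67), Gnai2 (-0.27), Gna13 (-0.11), Gnai3 (-0.08) and the main row of Gnas (0.10) lay within 2-fold.

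For Ptgir, Ptgs2 and Ptgds, the genes nearest in level were sought over all listed genes, by the distance of log2 TPM over the 2 cell type means. Nearest to Ptgir were Rapgef3, Slmap and Synpo, at distances of 0.05, 0.05 and 0.06. Dcxr, Tmem2 and Batf lay nearest to Ptgs2. Ptgds had no neighbour as near, with Cxcl12 at 0.32, Nxph4 at 0.33 and Galnt10 at 0.38. Since only 2 means entered the distance, it describes a pair of levels and no pattern over samples.

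The directions were read on 5 scales. On the ratio of mean TPM, which erythrocyte genes lower throughout, 8 of 10 genes kept their sign, Ptger4 and Ptger1 being the exceptions. Scaling counts to the same total kept 9 of 10, Ptger1 turning to -0.34, and TPM ratios over their median and counts scaled without erythrocyte genes kept all 10. The median of all listed genes was -1.79 on the TPM ratio, -0.55 on counts of the same total and 0.18 on counts without erythrocyte genes. Ptgdr2 lay between 5.42 and 7.39, Ptgs1 between 3.99 and 5.91, and Ptgir between -4.05 and -2.05 over the 5 scales.

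**Figure D5:**
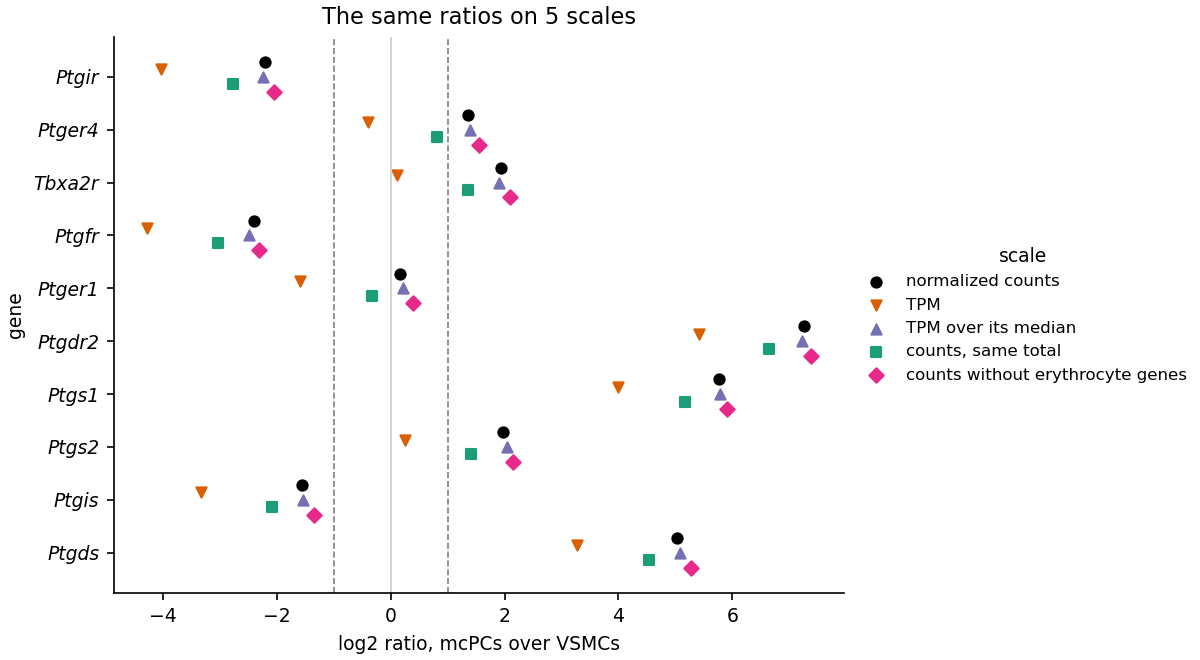
Log2 ratio of each of the 10 genes, mcPCs over VSMCs (horizontal axis), on 5 scales shown by symbol, with dashed lines at 2-fold. Ptgir, Ptgfr and Ptgis lie left of the lower line and Ptgdr2, Ptgs1 and Ptgds right of the upper line on all 5 scales, while Tbxa2r and Ptgs2 fall within 2-fold on the TPM ratio, at 0.11 and 0.25, and Ptger4 turns to -0.41 there and lies at 0.82 on counts of the same total.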

How the data were processed

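RNA-Seq had been carried out on polyA RNA of 6 samples, 3 of VSMCs and 3 of mcPCs, each sequenced in 4 runs. The authors filtered reads with Eoulsan and quantified Ensembl transcripts of the build Rnor_6.0 with Salmon 0.8.0, the version named in the submitters' processing notes. Gene-level sums came from tximport and normalization from DESeq2, and genes lacking a read in any sample were dropped. The table gives means of each cell type. The deposited TPM values are the authors' mean abundances, the deposited estimated counts are means of Salmon's output, and the authors' normalized counts are signal values, counts divided by normalization factors. Effective lengths were deposited too. The table also holds the authors' log2 fold changes, standard errors, p-values and adjusted p-values, which were not used.

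Mean counts were taken as means per run, which the table does not state: 69.8% of them in VSMCs and 71.5% in mcPCs became whole over 12 runs. They were multiplied by 4 runs for reads per sample, and by the 12 runs of a cell type and rounded to whole reads for counting intervals. All 20 means of the 10 genes were whole reads within 0.01 read. Intervals of ratios are exact (Clopper-Pearson) at 95%, rescaled by the normalization of each gene. Ratios took no pseudocount. All listed genes were used, whereas the study's final dataset left out genes under 0.8 TPM in VSMCs. These include Ptgdr2 and Ptgs1, and the pathway genes Pla2g4a, Pla2g4f, Faah, Pla2g2d, Slco2a1, Abcc4 and Ptgr1. The table held no counts per sample, so the test planned for them was not run. Scripts ran in Python 3.11.15 with numpy 2.4.6, pandas 2.3.3, scipy 1.17.1 and matplotlib 3.10.9, and were tested on simulated data.

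The 10 genes and all lists were chosen with earlier results of these data known. Named were the 10 genes, genes of prostanoid synthesis and handling at least 2-fold apart, and the 3 nearest genes of Ptgir, Tbxa2r, Ptgs2 and Ptgds. The most abundant gene of each marker list was named too, with its genes that had no row (11 of the erythrocyte list, not named). Of the genes downstream of the receptors, only some of those at least 2-fold apart were named. The genes nearest to Tbxa2r are not reported here. Further pathway and marker genes were named after their values were seen. Astrocyte markers, 5 of 9 with a row, summed to 0.787 TPM in VSMCs against 16.0 in mcPCs, with Slc1a3 the most abundant and no row for Aldh1l1, Mlc1, Slc1a2 and Slc6a11. Neuron markers, 4 of 9, summed to 3.21 and 22.0 TPM, led by Gad1 in VSMCs and Tubb3 in mcPCs, with no row for Npy, Rbfox3, Slc17a7, Sst and Syt1. Without erythrocyte genes these sums were 0.795 and 47.7 TPM, and 3.24 and 65.6 TPM. Ier2 of the immediate early list had no row, and Ccn1 was listed under its older symbol Cyr61. Promoter sequences are from RefSeq (GRCr8), a later build than that of the files, so no coordinates are given.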

Additional observations from a re-analysis of the deposited data

How the results depend on the processing

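No paired analysis was possible because the table gives means of each cell type and no value per sample. For the same reason no sample was left out in turn and no count test was run, so no spread between samples was computed, and the authors' standard errors were not used. On the plain ratio of mean TPM, 74.8% of all listed genes were at least 2-fold lower in mcPCs and 8.17% higher. There mcPCs exceeded VSMCs at least 2-fold for 3 of the 10 genes, and of the 23 other pathway genes 14 were lower and 5 higher, a scale on which erythrocyte genes lower every other gene of mcPCs. Ptger4 turned to a log2 ratio of -0.41 there. With counts scaled to the same total, 5 other pathway genes were at least 2-fold lower, against 28.8% of all listed genes. A threshold of 4-fold left 3 of the 10 genes higher, against 12.4% of all listed genes, and 0 other pathway genes lower, against 5.72%, and a minimum of 0.8 TPM in either cell type left 4 other pathway genes higher, against 17.0% of the 12790 genes above it. The number of the 10 genes lower in mcPCs stayed between 2 and 4 under every alternative run. Without division by length, Ptgir held 79.3% of receptor reads in VSMCs and 16.9% in mcPCs. Of the 10 genes depth limits Ptgs1 most, with 11 reads in VSMCs, and the ratio of Pla2g2d rests on 5 reads there.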

Other observations

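Genes with a name close to those examined, but outside the prostanoid receptor and synthase lists, were found by their description and chosen after their values were seen. Ptgfrn, a membrane protein named as a negative regulator of the prostaglandin F receptor, stood at 1.08 TPM in VSMCs against 2.25 in mcPCs, with a log2 ratio of normalized counts of 2.84, whereas Ptgfr itself had one of -2.41. Ptges3l, a gene similar to the E synthase gene Ptges3, stood at 26.9 and 1.31 TPM, with a log2 ratio of -2.54 against -0.35 for Ptges3, while the similarly named Ptges3l1 stood at 1.52 and 0.816 TPM, with a log2 ratio of 0.89.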
